A study of Blastobotrys raffinosifermentans with 8 samples.

Results

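A group of 150 genes of the yeast Blastobotrys raffinosifermentans had its lowest transcript signal 15 min after the cells entered new medium, whether or not that medium held protocatechuic acid. The genes were selected on the measured values themselves. For each of the 6065 genes with 3 or more probes, the value at 15 min was subtracted from the lowest of the values at 30 min, 2 h and 5 h in the same medium, and the lower of the results for both media was taken as the score. The 150 genes with the highest scores became members, after genes that differed between the media by 1 or more on the log2 scale at 15 min had been left out. These are 2.47% of the genes. Because the difference between 15 min and the later times chose the members, it is described here without a test. Only the values at the later times were compared with each other. The lowest of them in each medium entered the score as well, and how far this shaped their comparisons was not tested.

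Expression had been measured in the wild-type strain LS3 after overnight growth in YMM-glucose-NaNO3 (a yeast minimal medium with nitrate). Pelleted cells were moved to YMM-NaNO3 with 1% glucose and 0.5% protocatechuic acid (PA) or with 1% glucose alone (Glc), and cells were taken at 15 and 30 min and at 2 and 5 h. Each combination of medium and time was measured once, on 1 of 8 one-colour Agilent arrays, and no source says whether the times came from separate flasks. The PA arrays lay in 1 row of the slide and the Glc arrays in the other, and each time had its own column, so medium and row, and time and column, cannot be told apart. No array measured the cells before the transfer, so the earlier level of the members was not analysed here.

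B. raffinosifermentans, to which strain LS3 was reassigned from Blastobotrys (Arxula) adeninivorans, is a non-conventional yeast that uses many carbon and nitrogen sources, among them hydroxylated aromatic acids. Protocatechuic acid is such an acid, formed when plant phenolics are broken down. In the yeast Saccharomyces cerevisiae, a move to fresh medium changes many transcripts within minutes, including those for ribosome synthesis and for the stress response, and many of these changes are transient. The files do not pair the identifiers of the members with names or products, so no function is given for them. None of the 9 genes with 3 or more probes that the text of the paper names by identifier was a member. They were matched by identifier alone, and whether the identifiers on the array carry the numbering of the paper was not checked.

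The scores of the members ran up to 1.81, with a median of 0.80. The last members inside had scores of 0.643 and 0.636, and the first gene outside had 0.635, so the limit falls within a continuous run of values. A score above 0.3 was found for 541 genes. A further 2 genes scored above the last member, at 1.06 and 0.83, but were left out because the media differed by 1.66 and 1.31 at 15 min. The median score over all 6065 genes was -0.26, and 25.4% of them scored above 0. With the sign of the rule turned, so that genes highest at 15 min score high, 335 genes scored above 0.3, 161 scored above the last member, and the highest such score was 5.52.

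With PA, the members ranged from 5.97 to 9.80 at 15 min, with a median of 6.78 on the log2 scale after normalization. The median level with PA was 7.85 after 30 min, 8.12 after 2 h and 8.14 after 5 h. With Glc, they ranged from 6.0 to 9.89 at 15 min, with a median of 7.0. The median level with Glc was 8.04 after 30 min, 8.29 after 2 h and 8.01 after 5 h. The median of all 6036 genes tested lay between 6.44 and 6.46 on every array, which the quantile normalization fixes. The upper part of the members' range moved as well, with a highest level of 9.80 at 15 min and 11.13 at 5 h with PA, and of 9.89 at 15 min and 11.11 at 5 h with Glc.

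**Figure D1:**
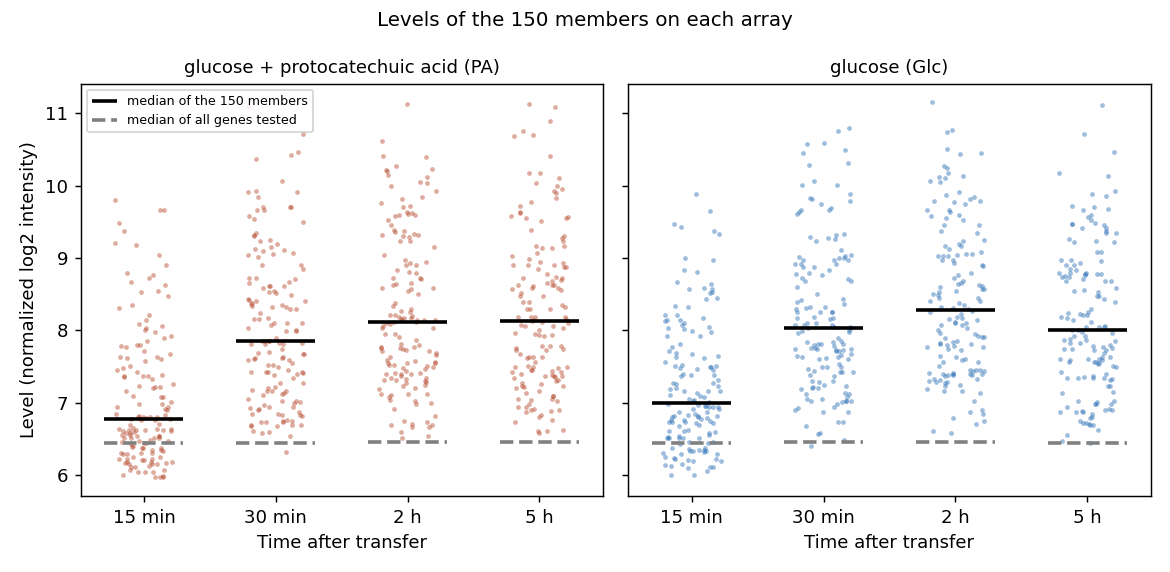
Levels of the 150 members (normalized log2 intensity, y axis) at each time (x axis), with PA on the left and with Glc on the right; each point is 1 member on 1 array. The members' median (solid line) is 6.78 with PA and 7.0 with Glc at 15 min and 7.85 with PA and 8.04 with Glc at 30 min, while the median of all genes tested (dashed line) stays near 6.45.

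Most of the gain was in place at 30 min. The rule asked for a higher value at 30 min than at 15 min in both media, so the selection itself favours an early gain. The level at 30 min was above that at 15 min by a median of 0.88 (1.84-fold) with PA and 0.90 (1.87-fold) with Glc, against 0.06 and 0.03 over all genes tested. With PA, the members had reached a median of 72.3% of their largest gain at 30 min, with quartiles of 52.8% and 89.7%. With Glc, the median was 80.3%, with quartiles of 62.2% and 99.1%. Under 50% of the gain at 30 min was found for 34 members with PA and 12 members with Glc. The largest gain of a member at any later time had a median of 1.32 with PA and 1.17 with Glc, and the highest value was 3.30 with PA and 3.10 with Glc. The 5 h level stood above the 15 min level by a median of 1.14 (2.21-fold) with PA and 0.76 (1.69-fold) with Glc. These folds are on the scale of quantile-normalized values with an offset of 50 intensity units. With the arrays scaled to a common median, the median gain at 30 min was 0.7 with PA and 0.67 with Glc. At 2 h under that scaling it was 1.15 with PA and 1.01 with Glc.

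The rule used the same arrays and spots, so the next values describe the members and lend the low value at 15 min no support. In the raw signal minus its background, with no scaling between arrays, all 150 members were lowest at 15 min in both media, and 17.0% of the genes tested were. The lowest later raw signal was 1.62 times that at 15 min with PA and 1.65 times with Glc (medians over members), and the corresponding ratios over all genes tested were 0.870 and 0.864. After normalization, all 150 members were again lowest at 15 min in both media, and 25.9% of the genes tested were. Of the 1279 probes of the members, 1216 (95.1%) were each lowest at 15 min in both media. All probes did so in 105 members, and under 80% of the probes in 7 members. Only 2 members had no probe well above background at 15 min with PA, and none at 15 min with Glc. All of a member's probes were well above background at 15 min in 101 members with PA and in 112 with Glc. At the later times this held for 135 to 143 members. The lower quartile of the members at 15 min was 6.38 with PA and 6.53 with Glc. The medians of all genes tested on these arrays were 6.45 and 6.44. How far the limit of detection shaped the values at 15 min was not tested. Control probes for the 7 spike-in transcripts above background on every array, whose input does not depend on the yeast, were higher at 30 min than at 15 min by a median of 0.21 in both media, and their part in the gain of the members was not tested.

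The probes of 1 gene differed in the size of the change. The SD over the probes of a member of the change since 15 min had a median between 0.25 and 0.34 over the media and later times, and reached 1.53 with PA and 1.67 with Glc. The change exceeded this SD in 145 to 149 of the 150 members. The mean of the later values minus the 15 min value had a median of 0.86 at the first probe and 1.04 at the last probe with PA, and of 0.73 and 0.92 with Glc. The last probe gave more than the first in 88 members (58.7%) with PA and in 95 (63.3%) with Glc. Over 5948 of the genes tested, the shares were 39.9% with PA and 42.8% with Glc.

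The member with the highest score was ARAD1D06006g, with 1.81. With PA, its level was 7.58 after 15 min, 9.50 after 30 min, 9.58 after 2 h and 9.72 after 5 h. With Glc, its level was 7.69, 9.32, 9.67 and 9.37 at the same times. All 10 of its probes were lowest at 15 min in both media, and the spread over the probes was between 0.47 and 0.55 (SD) on each array. The level at 30 min was 3.78-fold that at 15 min with PA and 3.11-fold with Glc. The later values stayed within 0.35 of each other between the media. The gene next to it by identifier number was also a member, with a score of 1.34.

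ARAD1D15466g had the second highest score, 1.64. Its level with PA was 7.67 after 15 min and then 9.25, 9.24 and 9.23 after 30 min, 2 h and 5 h. With Glc it was 7.57, 9.03, 9.24 and 9.22. After 30 min this gene held a flat plateau with PA, and with Glc it was on the same level at 2 h and 5 h. The PA minus Glc difference was 0.22, 0.00 and 0.01 at the later times in order, with an SD over its 10 probes of 0.07, 0.09 and 0.07. In limma, the mean difference between the media over the later times was 0.08 with a standard error of 0.07 for this gene (Bonferroni-adjusted p = 1), and 0.15 with a standard error of 0.10 for ARAD1D06006g (Bonferroni-adjusted p = 1).

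**Figure D2:**
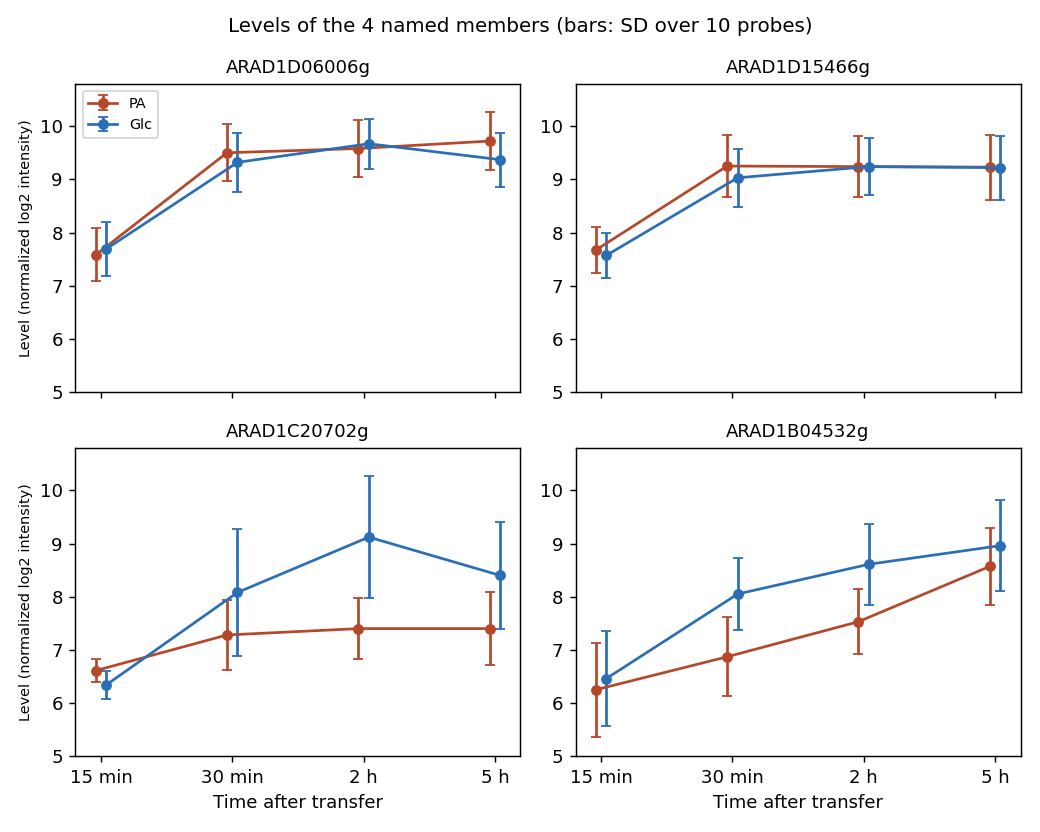
Levels (normalized log2 intensity, y axis) over time (x axis) of the 2 members with the highest scores (top) and the 2 members lowest with PA relative to Glc at the later times (bottom); red is PA, blue is Glc, and bars are the SD over the 10 probes of each gene. The upper genes differ between the media by at most 0.35 at any time, and ARAD1C20702g stands at 7.40 with PA and 9.12 with Glc at 2 h.

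The later times divided the members into several courses. The highest later value fell at 2 h in both media for 47 members (31.3%), against 14.6% of all genes tested. It fell at 30 min in both media for 15 members, against 22.3% of all genes tested, and at 5 h in both for 14 members (9.33%), against 18.0%. For the other 74 members (49.3%), against 45.1% of all genes tested, the media differed in the time of the highest value. The most frequent such combination was 5 h with PA and 2 h with Glc, in 43 members (28.7%) and 10.7% of all genes tested. With PA alone, 24 members were highest after 30 min, 56 after 2 h and 70 after 5 h. With Glc alone, 35 were highest after 30 min, 96 after 2 h and 19 after 5 h.

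The class highest at 2 h in both media had median levels with PA of 6.78, 7.62, 8.58 and 7.95 in order of time. With Glc, its medians were 7.02, 7.84, 8.53 and 8.12. These genes gained in both steps and were lower again at 5 h. The class highest at 30 min in both had medians with PA of 6.65, 8.34, 7.74 and 7.45, and with Glc of 6.95, 8.31, 7.84 and 7.56. In this class the median was lower at each later time, while some of its members were higher at 5 h than at 2 h. By the rule, the level at 5 h was above that at 15 min in every member. The class highest at 5 h in both had medians with PA of 6.39, 7.14, 7.28 and 8.26, and with Glc of 6.68, 7.65, 7.89 and 8.11. Its median gained at each time in both media, but not every member followed this order. Part of these counts rests on the scaling. With the arrays scaled to a common median in place of quantile normalization, 53 members were highest at 5 h with Glc. Those highest at 30 min with PA numbered 12, and those highest at 2 h in both media 54. Of the 6036 genes tested, 1938, 2279 and 800 fell in these groups under that scaling.

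**Figure D3:**
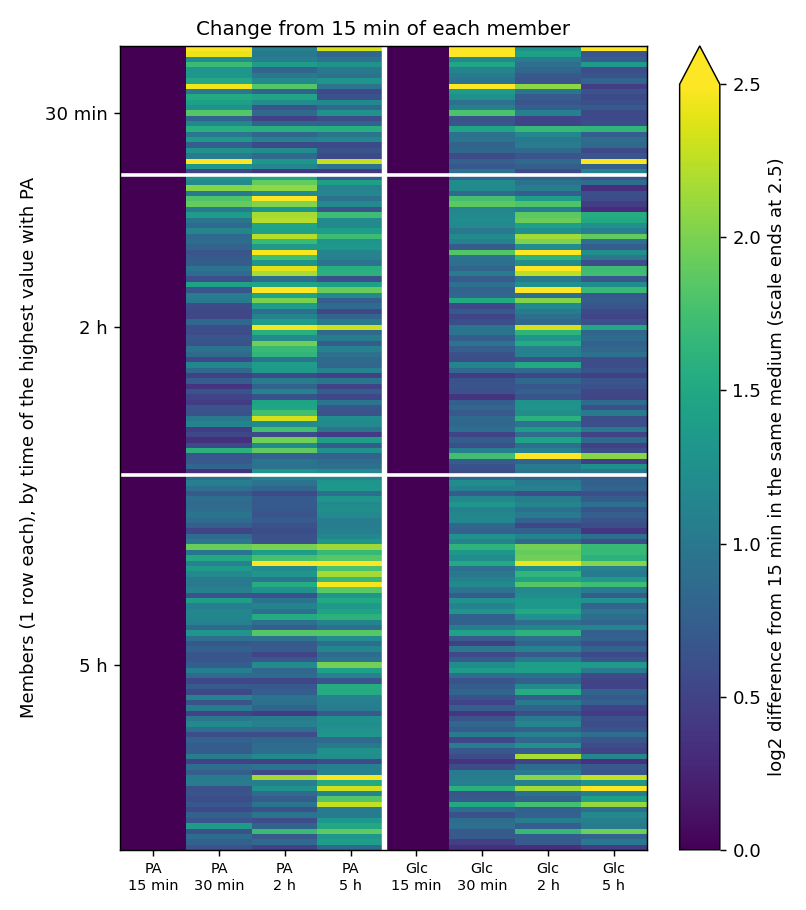
Change from 15 min in the same medium (log2, colour scale ending at 2.5) of the 150 members, 1 row each, on the 4 PA arrays (left block) and the 4 Glc arrays (right block); rows are grouped by the time of the highest value with PA. The 15 min columns are 0 by construction, all later cells are above 0, and 24, 56 and 70 members form the groups highest at 30 min, 2 h and 5 h with PA.

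The largest change of a member from 15 min was at 5 h with PA, where a gene of chromosome C was higher by 3.30 (9.82-fold). This gene ranked 6 by score and had levels of 6.48, 7.59, 9.62 and 9.78 with PA over the 4 times, and of 6.73, 8.26, 9.17 and 8.78 with Glc. The largest change at 30 min was with Glc, where a gene of chromosome A that ranked 5 was higher by 3.10 (8.56-fold). Its levels were 6.65, 9.30, 7.74 and 8.99 with PA and 7.21, 10.31, 8.49 and 9.86 with Glc. In both media this gene was high at 30 min, lower at 2 h and high again at 5 h.

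The comparison between 2 h and 30 min, with the media as a pair of measurements, asked whether the members went on changing after the first step. Both times entered the rule through the lowest later value, and how far this shaped the comparison was not tested. The members were higher at 2 h by a median of 0.08 with PA and 0.19 with Glc, against medians of -0.01 and 0.00 over all genes tested. With the arrays scaled to a common median, the members' medians were 0.35 in both media. The level was higher at 2 h in 93 members (62.0%) with PA and in 112 (74.7%) with Glc. Among all genes tested, 47.1% with PA and 49.9% with Glc were higher at 2 h. In limma, fitted to the 6 later arrays with terms for time and medium, no member passed a Bonferroni-adjusted p of 0.05, and 0% of the 6036 genes tested did. At an unadjusted p under 0.05, 44 members (29.3%) were higher at 2 h, against 12.0% of all genes tested, and 11 (7.33%) were lower, against 9.81%. With median scaling, 73 members were higher and 3 lower at that p, against 855 and 430 of the 6036 genes tested. With the processed signal, 27 members were higher and 3 lower, against 807 and 661 of the genes tested. After Benjamini-Hochberg adjustment in the fit to the quantile-normalized values, 6 of the 150 members passed, against 1.04% of all genes tested. Of the 6 members, 5 were higher and 1 was lower. The 5 were higher by 1.02 to 2.14, with standard errors of 0.06 to 0.13 and adjusted p-values between 0.0311 and 0.0434, in both media. The single gene that was lower differed by -1.69, with -1.56 with PA and -1.82 with Glc.

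Between 5 h and 30 min, the members were higher at 5 h by a median of 0.23 with PA and differed by a median of -0.01 with Glc, against 0.03 and 0.00 over all genes tested. With the arrays scaled to a common median, the members' medians were 0.36 with PA and 0.23 with Glc, so the sign with Glc depended on the scaling. The level was higher at 5 h in 116 members (77.3%) with PA and in 72 (48.0%) with Glc. Among all genes tested, 55.3% with PA and 50.4% with Glc were higher at 5 h. With PA, 11 members (7.33%) were higher at 5 h by 1 or more, against 2.88% of all genes tested, and 2 were lower by 1 or more, against 4.39%. With Glc, 3 members were higher by 1 or more, against 3.31% of all genes tested, and 5 were lower, against 3.43%. With 1 array for each medium and time, these counts have no test of their own. In limma over both media, none of the members passed the Bonferroni adjustment, and 0.0663% of the genes tested did, while at an unadjusted p under 0.05, 20 members (13.3%) were higher, against 13.2% of all genes tested, and 20 (13.3%) lower, against 12.2%, shares close to those of all genes. After Benjamini-Hochberg adjustment, 7 members (4.67%) passed, against 5.75% of all genes tested. Of these, 4 were higher at 5 h by 0.71 to 1.34, with standard errors of 0.06 to 0.13, and 3 were lower, with differences between -1.93 and -0.88. In each of the 7 both media moved the same way, and 4 members passed this adjustment in both time comparisons.

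The course after 2 h differed between the media for many members. With PA, 80 members (53.3%) were higher at 5 h than at 2 h, against 53.1% of all genes tested, and the members' median was 0.06. With Glc, 26 (17.3%) were, against 46.1% of all genes tested, and the members' median was -0.24. The medians over all genes tested were 0.01 with PA and -0.01 with Glc. With the arrays scaled to a common median, the members' medians were -0.06 with PA and -0.08 with Glc, so the contrast between the media was not found under that scaling. The spike-in controls were compared with 15 min and not with 2 h, on the scale of the deposited log2 table. With PA, these controls had a median difference from 15 min of -0.1 at 2 h and 0.13 at 5 h. With Glc, they had a median difference of -0.04 at 2 h and -0.42 at 5 h. Their part in the difference between the media was not tested.

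The comparison of PA with Glc asked whether protocatechuic acid changed the level that the members reached. At 30 min, the PA minus Glc difference over the members ran from -1.18 to 2.03 with a median of -0.16, and 110 of the 150 were lower with PA. At 2 h it ran from -1.72 to 0.94 with a median of -0.15, and 108 were lower with PA. At 5 h it ran from -1.0 to 1.0 with a median of 0.11, and 99 were higher with PA. Over all genes tested, the medians were -0.02, -0.02 and 0.00. The share higher with PA was 26.7%, 28.0% and 66.0% of the members, against 44.0%, 44.3% and 50.4% of all genes tested. The most frequent order of signs, lower with PA at 30 min and 2 h and higher at 5 h, was found in 56 members (37.3%) and in 20.9% of all genes tested. At 15 min, a time that entered the rule, 122 members were lower with PA, with a median of -0.16. The share higher with PA at 15 min was 18.7% of the members and 36.4% of all genes tested.

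These medians depended on the scaling. With the arrays scaled to a common median, the medians over the members were -0.06, 0.00 and 0.01 in order of time. The spike-in controls had a median PA minus Glc of -0.05, -0.19 and 0.52 at these times, and their part in the differences of the members was not tested.

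**Figure D4:**
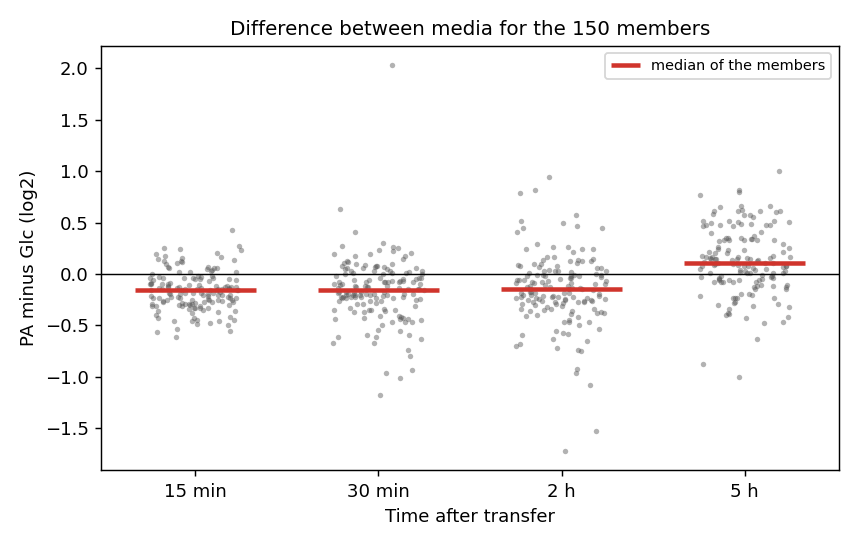
PA minus Glc difference (log2, y axis) of each of the 150 members at each time (x axis), with the median as a red line. The medians lie at -0.16, -0.16 and -0.15 at 15 min, 30 min and 2 h and at 0.11 at 5 h, and most points lie within 0.5 of 0.

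A difference of 1 or more between the media was rare among the members and among all genes tested. The rule left out genes that differed this much at the first time and took the lower score of both media. How far this shaped the later differences was not tested. At 30 min, 1 member (0.667%) was higher with PA by 1 or more, against 1.23% of all genes tested, and 2 (1.33%) were lower, against 0.199%. At 2 h, 0 members were higher, against 1.01%, and 3 (2.0%) were lower, against 0.48%. At 5 h, 1 member (0.667%) was higher, against 0.398%, and 0 were lower, against 0.861%. The lowest difference at 5 h, -1.0, was smaller than 1 in size before rounding. These counts are of 0 to 3 members, and ARAD1B04532g was counted at both 30 min and 2 h, so no direction is read from the shares. The 1 member higher at 30 min had a level of 9.11 with PA and 7.08 with Glc, a difference of 2.03, and it differed by 0.52 at 2 h and by -0.13 at 5 h. In the limma fit over 30 min, 2 h and 5 h, none of the 150 members had an adjusted p under 0.05 for PA against Glc, by Bonferroni or by Benjamini-Hochberg, and 0% of all genes tested did. At an unadjusted p under 0.05, 4 members (2.67%) were higher with PA, against 2.07% of all genes tested, and 13 (8.67%) were lower, against 2.70%. These counts changed with the processing. With the processed signal, 2 members were higher and 5 lower, against 180 and 174 of all genes tested. With median scaling, 5 members were higher and 9 lower, against 143 and 108. The fit had 2 residual degrees of freedom, so a difference that held at all times could still miss the threshold.

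The members lowest with PA relative to Glc were ARAD1C20702g and ARAD1B04532g. ARAD1C20702g had levels of 6.61, 7.28, 7.40 and 7.40 with PA and of 6.34, 8.08, 9.12 and 8.40 with Glc, in order of time. It gained 0.79 between 15 min and 2 h with PA and 2.78 with Glc, so the gain with Glc was the larger. The mean PA minus Glc over the later times was -1.17 with a standard error of 0.21 (limma, Bonferroni-adjusted p = 1, unadjusted p = 0.00630). The probes of this gene differed in size, with an SD of 0.63 over the 10 probes for the difference at 2 h.

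ARAD1B04532g had levels of 6.25, 6.87, 7.53 and 8.57 with PA and of 6.46, 8.05, 8.61 and 8.96 with Glc at the same times. It gained at each time in both media. The PA minus Glc difference was -1.18, -1.08 and -0.38 at the later times in order, with an SD over its 10 probes of 0.32, 0.29 and 0.27, so it was smallest at the last time. The mean difference over the later times was -0.88 with a standard error of 0.19 (limma, Bonferroni-adjusted p = 1, unadjusted p = 0.0113). At 15 min with PA, 8 of its 10 probes were well above background.

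The members were unevenly placed in the genome, by the letter that names the chromosome in each identifier. Chromosome D held 70 members, 3.23% of its 2169 genes, and chromosome B held 33, 3.16% of its 1045 genes. Chromosome C held 39, 1.97% of its 1984 genes, and chromosome A held 8, 0.923% of its 867 genes. The 150 genes chosen by the mirrored rule, highest at 15 min in both media, were 2.67%, 1.91%, 2.37% and 2.88% of the genes of chromosomes D, B, C and A. A score above 0.3 was found for 217 of the 2169 genes of chromosome D. It was found for 97 genes (9.28%) of chromosome B, 162 (8.17%) of chromosome C and 65 (7.5%) of chromosome A. In proportion, these shares differed less between the chromosomes than those of the members. The median scores of the genes of chromosomes D, B, C and A were -0.28, -0.22, -0.25 and -0.27. In order of identifier number, 14 members (9.33%) stood next to another member, while 2.47% of all genes were members. They formed 7 pairs, 6 of them on chromosome D, and no more than 2 members stood in a row. Of the 286 neighbours that were not members, 33 had a score above 0.3, against 6.61% of all genes that were not members.

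The members were short genes with bright probes. The last base covered by a probe, counted from the start of the gene, had a median of 775 among the members, with quartiles of 570 and 1054, against a median of 1127 among the genes highest at 15 min and 1176 among all 6065 genes. The quintile of the genes with the nearest last base held 55 members, and the quintile with the farthest held 3. By mean intensity over the later arrays, the brightest quintile held 117 members and the 2 dimmest quintiles held 0. The intensity of different probes does not order transcripts by abundance, and a gene had to be bright later to gain under the rule. Among the genes of the brightest quintile, the last base had a median of 762 for the members and 735 for the others, so at like brightness the members were not shorter. Within the same quintile, chromosome D held 47.9% of the members and 34.5% of the other genes, and chromosome A held 6.84% and 14.7%.

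**Figure D5:**
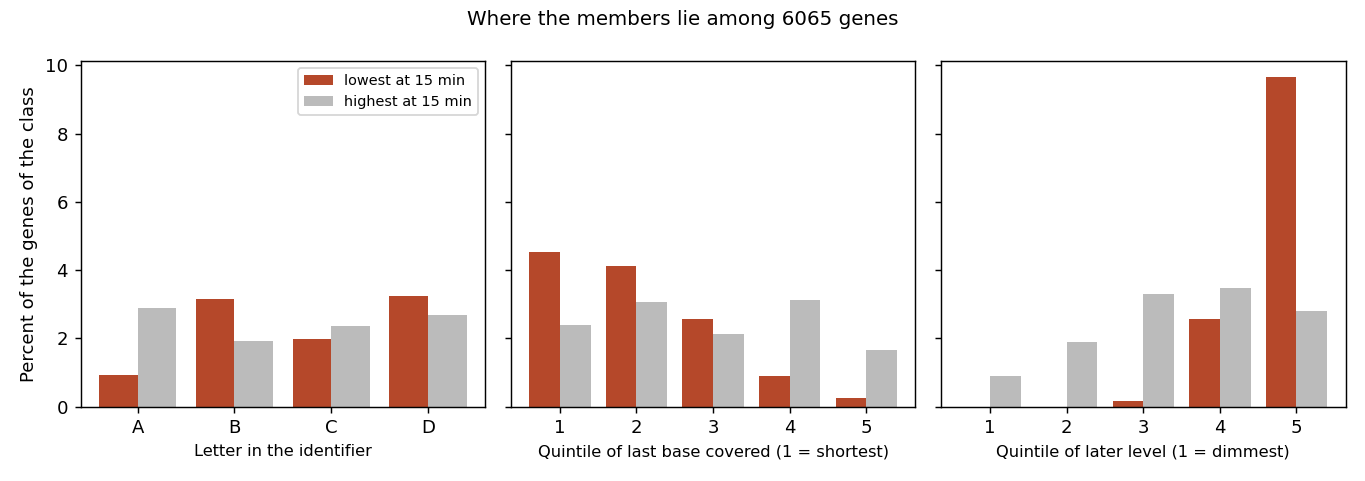
Percent of the genes of each class (y axis) that were lowest at 15 min in both media (red) or highest at 15 min in both media by the mirrored rule (grey), by chromosome letter (left), by quintiles of the last base covered by a probe (middle) and by quintiles of the mean intensity on the later arrays (right). The red bars are 3.23% on chromosome D and 0.923% on chromosome A, and they reach 9.65% in the brightest quintile.

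Compared with the other genes of that brightest quintile, the members had a similar difference between the media at 15 min, with a median PA minus Glc of -0.19 for the members and -0.23 for the others. The medians were -0.14 for the members and -0.10 for the others at 30 min, -0.18 for the members and -0.03 for the others at 2 h, and 0.14 for the members and 0.03 for the others at 5 h. Between 5 h and 2 h with PA, the median difference was 0.07 for the members and 0.06 for the others. Between 5 h and 2 h with Glc, the members differed by a median of -0.24 and the others by -0.07. Of the members in this quintile, 28.2% were highest at 2 h in both media, against 15.1% of the others. These shares describe single arrays and were not tested.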

How the data were processed

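RNA of 8 samples (1 per medium and time) was labelled with Cy3 and hybridized to 8 Agilent arrays of 62976 spots on 1 slide. The deposited scanner files hold the median intensity of each spot and of its background and a processed signal, read by the authors with Agilent Feature Extraction 11.5.1.1. The log2 table deposited by the authors equals normexp (offset 16) and quantile normalization over all spots, so scale and direction are known from the values, and its medians lie between 5.657 and 5.668. It was used to choose the members, with a gene as the median over its spots.

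All other levels were computed from the intensities in limma 3.58.1 (R 4.3.3): normexp with offset 50 on all spots, control spots left out, quantile normalization, log2, the mean over spots of a probe and the median over probes of a gene. The 56312 probes carry 6160 identifiers, and tests were run on the 6036 genes that had a probe marked well above background on 2 or more arrays. All 150 members were among them. No spot was saturated, 58.9% to 70.2% of an array's yeast spots exceeded background, and precision is limited by the number of arrays. The 3 comparisons (medium, 5 h minus 30 min, 2 h minus 30 min) were fitted with lmFit and eBayes to the 6 later arrays, with medium and time as terms and no interaction, and adjusted by Bonferroni over all genes tested. P-values measure the spread between single arrays of different times or media.

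The members and lists were chosen with earlier results of these data known. The genes named are the 2 members with the highest score, the 2 members with the lowest mean PA minus Glc over the later times, and any member that the paper's text names by identifier, which gave none. Other members are described by values only, since the files do not pair identifiers with products, and gene lists by function were therefore not used. The alternatives were other background offsets, the processed signal relative to the percentile 75, median scaling, the deposited log2 table, other summaries of a gene's probes, other filters, Benjamini-Hochberg adjustment, limma's trend and robust options, all 8 arrays, and leaving out each later time. The raw signal, the probes taken singly and the rule applied to the values with offset 50 were added after seeing the data. The limma fit was tested on simulated arrays with known PA minus Glc differences. Python 3.11.15 with matplotlib 3.10.9 drew the figures.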

Additional observations from a re-analysis of the deposited data

Results flagged for a closer look

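Between 30 min and 5 h the median over the members differed in sign between the media, at 0.23 with PA and -0.01 with Glc, and between 2 h and 5 h it was 0.06 with PA and -0.24 with Glc. With median scaling, the medians had the same sign in both media, at 0.36 with PA and 0.23 with Glc for 5 h minus 30 min and at -0.06 with PA and -0.08 with Glc for 5 h minus 2 h. The difference between the media was not tested, since each medium and time has 1 array. ARAD1D15466g was lower by little with PA and higher with Glc relative to 30 min: at 5 h the differences were -0.02 with PA and 0.19 with Glc, and at 2 h they were -0.01 with PA and 0.21 with Glc. This difference was not tested either.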

How the results depend on the processing

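For the 3 limma comparisons, 0 members passed under every alternative except Benjamini-Hochberg adjustment, which passed 7 members for 5 h minus 30 min and 6 for 2 h minus 30 min. Leaving out 30 min, 2 h or 5 h gave 0 members in each comparison that could be fitted, but without 5 h the median PA minus Glc over the members was -0.134, against -0.045 with all later times. Without 30 min, 2 h and 5 h in turn, 5, 8 and 35 members were lower with PA at an unadjusted p under 0.05 in limma. Those higher with PA were 6, 2 and 3. Over all genes tested, 126, 104 and 381 were lower and 118, 56 and 265 were higher. With median scaling, the members' median of 2 h minus 30 min in limma was 0.335, against 0.16, and that of 5 h minus 30 min was 0.302, against 0.071. The members' median of 5 h minus 30 min with Glc was -0.012, and 0.23 with median scaling. Chosen afresh by the same rule, the list shared 80 of its 150 genes with the members from the processed signal, 97 with median scaling and 57 from the brightest spot of each gene, and between 117 and 149 under the other alternatives. All 150 members had a score above 0 under each of these except the brightest spot, where 139 did. The cause was not tested. The labels give no replicate numbers, and the terms for time and medium already set PA against Glc within each time. Precision is limited by 1 array per condition and 2 residual degrees of freedom, and for 2 members by the lack of a probe above background at 15 min with PA.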
